A study of Mus musculus with 12 samples.

Results

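Cytochrome P450 genes of families 1, 2 and 3 were described in 12 mouse liver arrays. Members were all genes whose symbol begins with Cyp1, Cyp2 or Cyp3 followed by a letter and a number and that had a transcript cluster (the probe set of the array that stands for 1 transcript unit) with exactly 1 gene symbol. There were 53 members, each with 1 cluster, among 19938 genes with such a cluster and 35556 clusters in all. They fall into 16 subfamilies on 8 chromosomes. The largest were Cyp2c with 13 members, Cyp2d with 10, Cyp2j and Cyp3a with 6 each and Cyp2b with 5.

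The mice were KK-Ay, in which the agouti allele A-y sits on the KK background and leads to obesity and diabetes, and KK mice without it, both from Jackson Laboratories and fed a standard chow. The arrays form 6 groups of 2 by their titles, namely 6Y, 16Y and 42Y, and 6K, 42WKK and 1 (arrays 1-3 and 1-5). The paper names KK-Ay and KK mice of 42 weeks, which are taken as 42Y and 42WKK, and the ages behind 6, 16 and 1 and the strain of group 1 are given nowhere in the sources used here. The records conflict. The series text counts 6Y, 16Y and 42Y as diabetic and the other groups as control, while the genotype field of the single records calls 6K diabetic and 42Y control, so groups are called by their titles. The agouti gene had signals of 6.78 to 7.06 in the 6 Y arrays and 5.20 to 5.51 in the other 6 (log2, as all signals here). By this gene the arrays split as in the series text and not as in the genotype field. The records also name blood as the tissue and the methods name liver. Array medians of 10 hepatocyte genes were 13.08 to 13.25 and those of 5 measured T cell genes 3.99 to 4.60. No source says that the 2 arrays of a group came from separate mice, so p-values measure the spread between arrays, which may be technical. In whole tissue, fewer cells of a type and less RNA per cell cannot be told apart.

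P450 enzymes of families 1 to 3 sit in the membrane of the endoplasmic reticulum and insert oxygen into drugs, foreign compounds, steroids, bile acids and fatty acids, with electrons passed on by the reductase Por. Their genes are switched on by receptors that sense such compounds. CAR (gene Nr1i3) is best known for Cyp2b10, PXR (Nr1i2) for Cyp3a11 and the aryl hydrocarbon receptor (Ahr) for Cyp1a1, Cyp1a2 and Cyp1b1. In mouse liver the growth hormone rhythm also makes many of them differ between the sexes, and most lie in tandem clusters of close copies.

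Of the 7 members that differed among the groups, 4 form 2 pairs by subfamily. These are Cyp2b10 and Cyp2b9 on chromosome 7 and Cyp2c67 and Cyp2c68 on chromosome 19. Cyp2a22, Cyp3a13 and Cyp2j6 belong to other subfamilies. Of these, Cyp2a22 (next to Cyp2a5 and Cyp2a12) and Cyp2j6 (next to Cyp2j8 and Cyp2j9) also lie beside genes of their own subfamilies. In the mouse annotation Cyp2b10 lies between Cyp2s1 and Cyp2b13, and Cyp2b9 on the far side of Cyp2b13. Cyp2c67 has Cyp2c38 and Cyp2c68 as its neighbours. The 250 bases before the start of each of these 4 genes are shown because in 16Y against 6Y the Cyp2b pair was called higher and the Cyp2c pair lower. Under other settings of the analysis, the call of Cyp2b9 was lost in 11 of 18 and that of Cyp2c67 in 10 of 19. The bases were taken from RefSeq (GRCm38.p6), at chr7:25897408-25897657 (+), chr7:26173159-26173408 (+), chr19:39649043-39649292 (-) and chr19:39741102-39741351 (-). Capitals mark matches, on either strand, to any of 7 motifs that were searched. The TATA box was searched as TATAAA. The D-box, bound by Dbp and its relatives, was searched as TTATGNAA, and the nuclear receptor half-site as AGGTCA. The E-box bound by clock factors was spelled CACGTG, and the motif of STAT5, the factor that growth hormone activates, TTCNNNGAA. For HNF4A, a main hepatocyte factor, the letters were CAAAGTCCA, and for the aryl hydrocarbon receptor the core of its element, TNGCGTG.
Cyp2b10: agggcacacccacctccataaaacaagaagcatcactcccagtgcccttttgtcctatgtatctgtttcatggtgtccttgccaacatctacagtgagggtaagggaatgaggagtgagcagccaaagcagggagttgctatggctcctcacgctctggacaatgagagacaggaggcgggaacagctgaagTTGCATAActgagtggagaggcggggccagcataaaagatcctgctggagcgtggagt
Cyp2b9: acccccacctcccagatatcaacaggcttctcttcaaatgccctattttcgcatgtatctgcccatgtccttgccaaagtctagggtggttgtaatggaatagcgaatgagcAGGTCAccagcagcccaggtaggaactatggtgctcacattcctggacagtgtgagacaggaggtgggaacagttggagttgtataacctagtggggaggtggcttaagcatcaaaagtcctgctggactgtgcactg
Cyp2c67: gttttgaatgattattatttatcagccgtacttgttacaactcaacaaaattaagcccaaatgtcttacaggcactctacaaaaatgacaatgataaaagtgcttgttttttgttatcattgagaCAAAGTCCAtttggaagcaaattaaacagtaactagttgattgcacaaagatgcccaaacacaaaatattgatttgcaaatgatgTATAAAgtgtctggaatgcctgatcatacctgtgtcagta
Cyp2c68: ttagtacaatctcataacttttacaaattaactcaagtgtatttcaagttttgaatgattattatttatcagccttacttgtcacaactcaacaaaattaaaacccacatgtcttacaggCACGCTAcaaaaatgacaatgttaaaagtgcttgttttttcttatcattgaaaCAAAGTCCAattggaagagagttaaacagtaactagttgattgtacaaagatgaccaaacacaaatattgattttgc
Over the bases aligned without gaps (window of 250 bases before to 50 after the start), Cyp2c67 and Cyp2c68 were identical at 230 of 251 (91.6%) and Cyp2b10 and Cyp2b9 at 223 of 289 (77.2%), while Cyp2b10 and Cyp2c67 were identical at 51.4%. The D-box match of Cyp2b10 begins at position -58 from the start, and the stretch of Cyp2b9 holds a half-site at -138. Cyp2c67 and Cyp2c68 share an HNF4A match, at -125 and -77. It lies in the same copied letters, which are shifted against the annotated starts. Cyp2c67 also holds TATAAA at -40, and Cyp2c68 holds TNGCGTG, on the other strand, at -130. The letters shown for Cyp2c68 end before those that would face this TATAAA. Promoters were found for 44 of the 53 members (47 promoters). Among them 12.8% held the HNF4A motif, against 0.475% of all 32851 promoters, 46.8% held TATAAA against 13.6%, 34% AGGTCA against 16.3%, and 6.38% TTATGNAA (Cyp2b10, Cyp2b19 and Cyp2b23) against 3.38%. The E-box was in 2.13% against 7.15%, the STAT5 motif in 4.26% against 8.3% and TNGCGTG in 2.13% against 5.07%. The HNF4A matches were all in Cyp2c and Cyp3a genes. Close copies such as Cyp2c67 and Cyp2c68 share letters, so the promoters of members are not independent of each other. Some genes have several promoters, each of them counted. A match is a description of the letters and not a site.

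Over the 12 arrays, 31 members had a mean signal of at least 6 and 22 a lower mean, with signals from 1.51 to 6.35, and 21 of these stayed under 6 in all arrays. The files hold no detection call, so a low signal is not called absent. The range of a member over the 12 arrays reached 1 or more in 19 members (11 of them with a mean of at least 6) and stayed under 0.5 in 10.

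**Figure D1:**
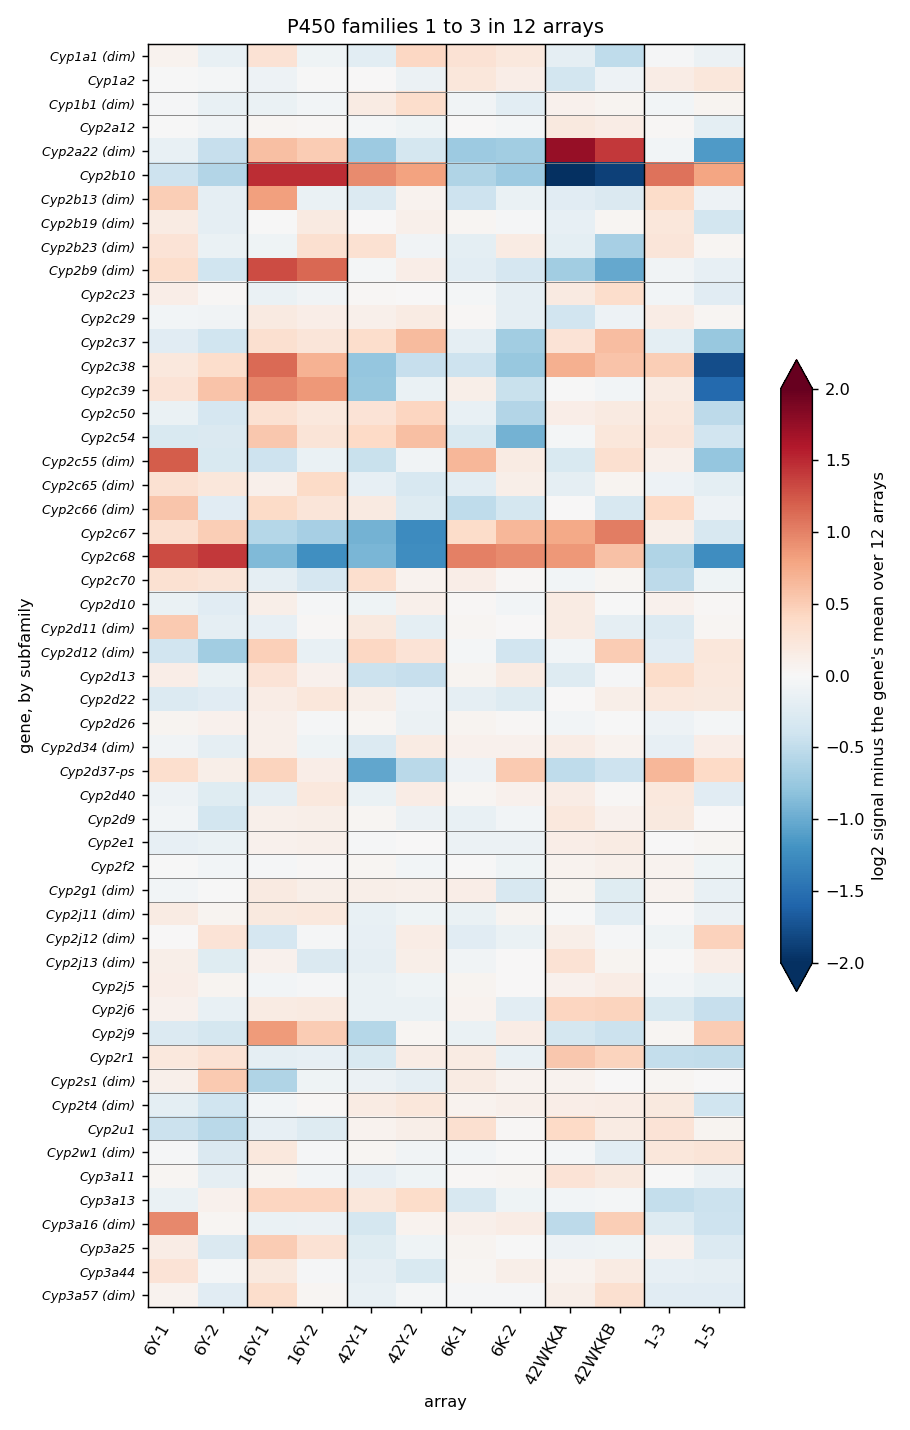
Log2 signal of each of the 53 members (rows, by subfamily) in each of the 12 arrays (columns, by title group) minus the member's own mean over the arrays, with "dim" after members whose mean is under 6. The widest ranges are 3.86 for Cyp2b10, 2.91 for Cyp2c38 (with array 1-5 far below the rest), 2.87 for Cyp2a22 and 2.64 for Cyp2c68, while Cyp2f2 and Cyp2d26 are nearly blank, with ranges of 0.19 and 0.21.

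The 6 members with a signal of at least 12 in every array varied little in signal. Whether differences are compressed at such high signals was not tested. Cyp2e1, which oxidises ethanol and acetaminophen, had 12.99 and 13.02 in 6Y, 13.24 and 13.25 in 16Y, 13.12 and 13.16 in 42Y, 13.03 and 13.02 in 6K, 13.28 and 13.31 in 42WKK, and 13.15 and 13.18 in group 1. The 2 arrays of each group lay close together, and all 12 ranged over 0.32. Cyp2f2, which oxidises naphthalene, ranged over 12.90 to 13.09, and Cyp2d26 over 12.50 to 12.71. Cyp2a12 was at 12.24 to 12.63 and Cyp2c29, a Cyp2c enzyme that phenobarbital induces in mice, at 12.13 to 12.69. Cyp3a11, the main PXR target of its subfamily, was at 12.65 to 13.10. None of these 6 members passed in any of 8 tests, in each of which at most 5.43% of all clusters passed.

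The first question was whether members differed among the 6 groups at all. In an F test of the 6 groups (limma, Benjamini-Hochberg adjusted p under 0.05 over all clusters), 7 of the 53 members passed (13.2%), against 5.43% of all clusters and 5.91% of the clusters kept as genes. Neither share is matched to the signal levels of the members, and 12146 of all clusters carry no symbol. The 7 were Cyp2b10 (adjusted p = 0.000472), Cyp2c68 (0.00372), Cyp2c67 (0.0104), Cyp2b9 (0.0219), Cyp2a22 (0.0226), Cyp3a13 (0.0265) and Cyp2j6 (0.0466). Of these, Cyp2b9 and Cyp2a22 have a mean signal under 6. At an unadjusted p under 0.05, 20 members passed (37.7%), against 26.4% of all clusters. In each of the following comparisons the members called were among these 7.

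**Figure D2:**
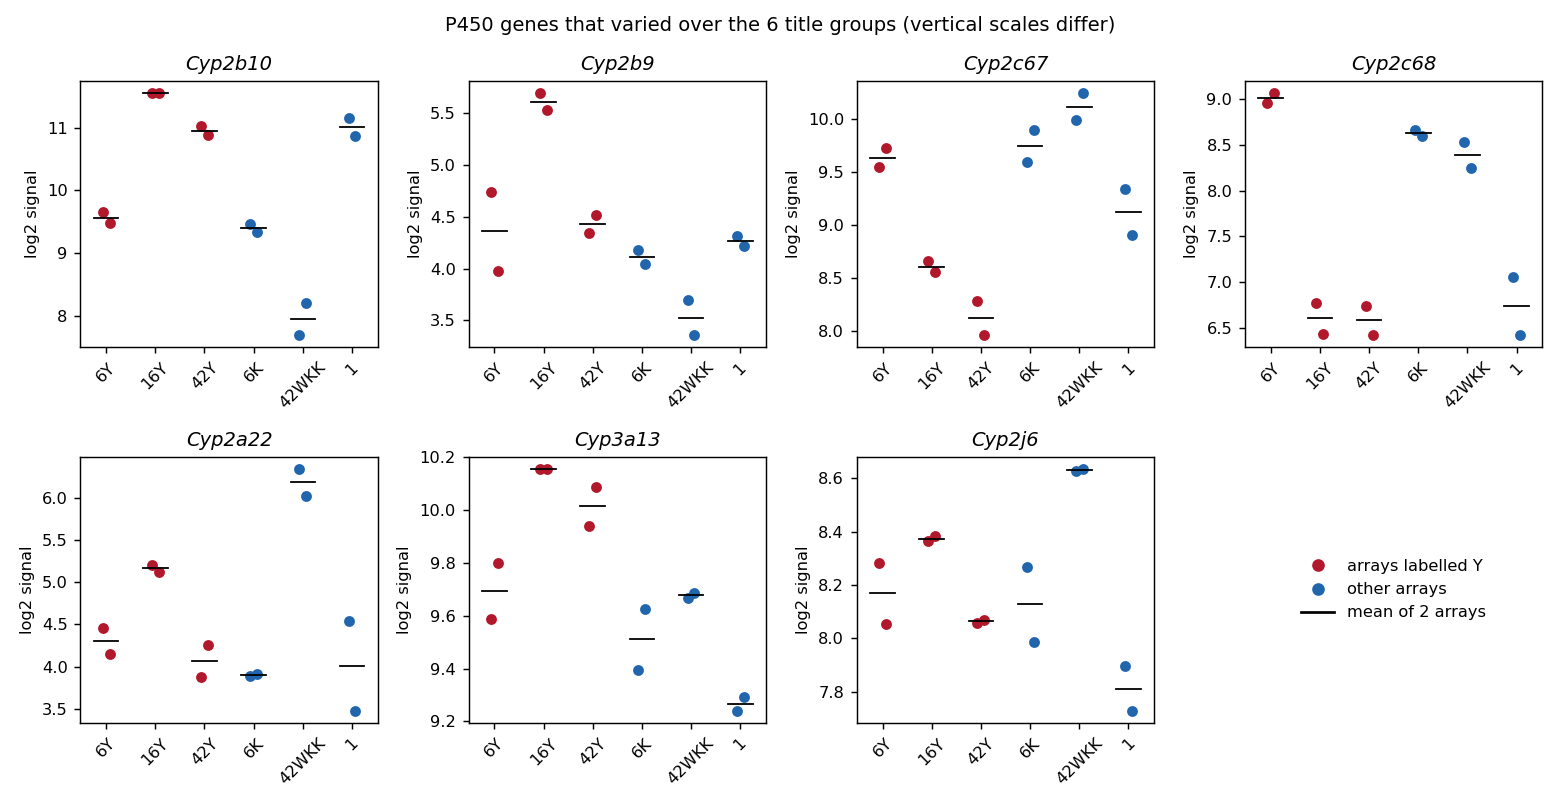
Log2 signal (vertical axis, a scale of its own in each panel) of the 7 members that passed the F test, in each array (points) by title group, with bars at the mean of the 2 arrays. Cyp2b10 is lowest in the 2 arrays of 42WKK (7.69 and 8.20), while Cyp2a22 and Cyp2j6 are highest there, and Cyp2c68 is split into 3 groups at 8.25 to 9.07 and 3 groups at 6.42 to 7.06.

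Cyp2b10, the gene by which CAR activation is usually read, had the widest range of the 53 members, 3.86. Its signals were 9.65 and 9.48 in 6Y, 11.55 and 11.55 in 16Y, 11.02 and 10.88 in 42Y, 9.46 and 9.34 in 6K, 7.69 and 8.20 in 42WKK, and 11.16 and 10.86 in group 1. The 2 arrays of each group stayed closer to each other than to any other group, except that 42Y and group 1 overlapped and that 6Y and 6K nearly met (9.48 and 9.46). By group mean the order was 16Y (11.55), 1 (11.01), 42Y (10.95), 6Y (9.57), 6K (9.40) and 42WKK (7.95). Of the 5 steps between neighbours in this order, which were compared after the data were seen, 2 passed. These were 42Y over 6Y (adjusted p = 0.0109, limma) and 6K over 42WKK (0.014), while 16Y over 1 (0.26), 1 over 42Y (0.881) and 6Y over 6K (0.954) did not. Group 1, which carries no Y in its title, thus lay with 16Y and 42Y, and 42Y minus group 1 was -0.06 (standard error 0.18).

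The genes whose signal followed that of Cyp2b10 most closely over the 12 arrays, among all genes with 1 symbol, were Snord53 (Pearson r = 0.941), a small nucleolar RNA, Cd300lf (0.927), Otop2 (0.919), Tmem134 (0.915) and Klrb1b (0.913). The arrays of a group share their condition, so these are 12 points in 6 pairs. Snord53 ran over 4.93 to 7.12 and Tmem134 over 8.01 to 8.52, while Otop2 moved only over 4.98 to 5.42, Cd300lf over 3.36 to 4.27 and Klrb1b over 2.96 to 3.45. Within the families, Cyp2c29 had r = 0.913 with Cyp2b10 at a range of 0.56, Cyp2b9 had 0.781, and Cyp2c67 and Cyp2c68 had -0.838 and -0.801.

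The comparison of KK-Ay and KK mice of 42 weeks (42Y against 42WKK) asked how the members differed late in the disease. Cyp2b10 was higher in 42Y, and Cyp2c67, Cyp2c68 and Cyp2a22 were lower. Of the 53 members 4 passed (7.55%), 1 higher and 3 lower, against 1.85% of all clusters. At an unadjusted p under 0.05, 12 passed, 4 higher and 8 lower, which is 22.6% of members against 17.3% of all clusters. The median log2 fold change was -0.07 over members and 0.00 over all genes.

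Cyp2b10 had 11.02 and 10.88 in 42Y, against 7.69 and 8.20 in 42WKK, a difference of 3.00 on the log2 scale (standard error 0.18, 8.0-fold, adjusted p = 0.000556, limma). Both 42Y arrays lay far above both 42WKK arrays. The arrays of 42WKK were the lowest of all 12.

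Cyp2c67 had 8.29 and 7.97 in 42Y, against 9.99 and 10.24 in 42WKK, a difference of -1.99 on the log2 scale (standard error 0.19, adjusted p = 0.00377, limma). Cyp2c68 had 6.74 and 6.42 in 42Y, against 8.53 and 8.25 in 42WKK, a difference of -1.81 on the log2 scale (standard error 0.22, adjusted p = 0.00998). For both genes the 42Y arrays lay apart from and below the 42WKK arrays. These genes are close copies, and a further cluster that carries the symbols Cyp2c69, Cyp2c67, Cyp2c68 and Cyp2c40, and is therefore no member, had 9.48 and 9.20 in 42Y, against 11.10 and 11.07 in 42WKK, a log2 fold change of -1.74 (adjusted p = 0.00332). How far probes of one copy read another was not tested.

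Cyp2a22 had 3.88 and 4.26 in 42Y, against 6.35 and 6.02 in 42WKK, a difference of -2.11 on the log2 scale (standard error 0.31, adjusted p = 0.0197, limma). The 42WKK arrays were the only ones above 6, and the remaining 10 ran over 3.48 to 5.21. Of the same subfamily, Cyp2a5 and Cyp2a4, a coumarin and a steroid hydroxylase, share 1 cluster, which did not pass in this comparison, with 11.26 and 11.73 in 42Y against 11.15 and 11.09 in 42WKK (0.38, adjusted p = 0.558). With 42WKK A or 42WKK B left out, the array that remains is assumed to vary like the other groups. Cyp2b10 and Cyp2c67 then still passed, while Cyp2c68 had adjusted p = 0.0964 and 0.0554 and Cyp2a22 0.142 and 0.103, and Cyp2a22 had 0.0731 without 42Y-1. With the 4 arrays fitted alone none of the 4 members passed (lowest adjusted p = 0.127).

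**Figure D3:**
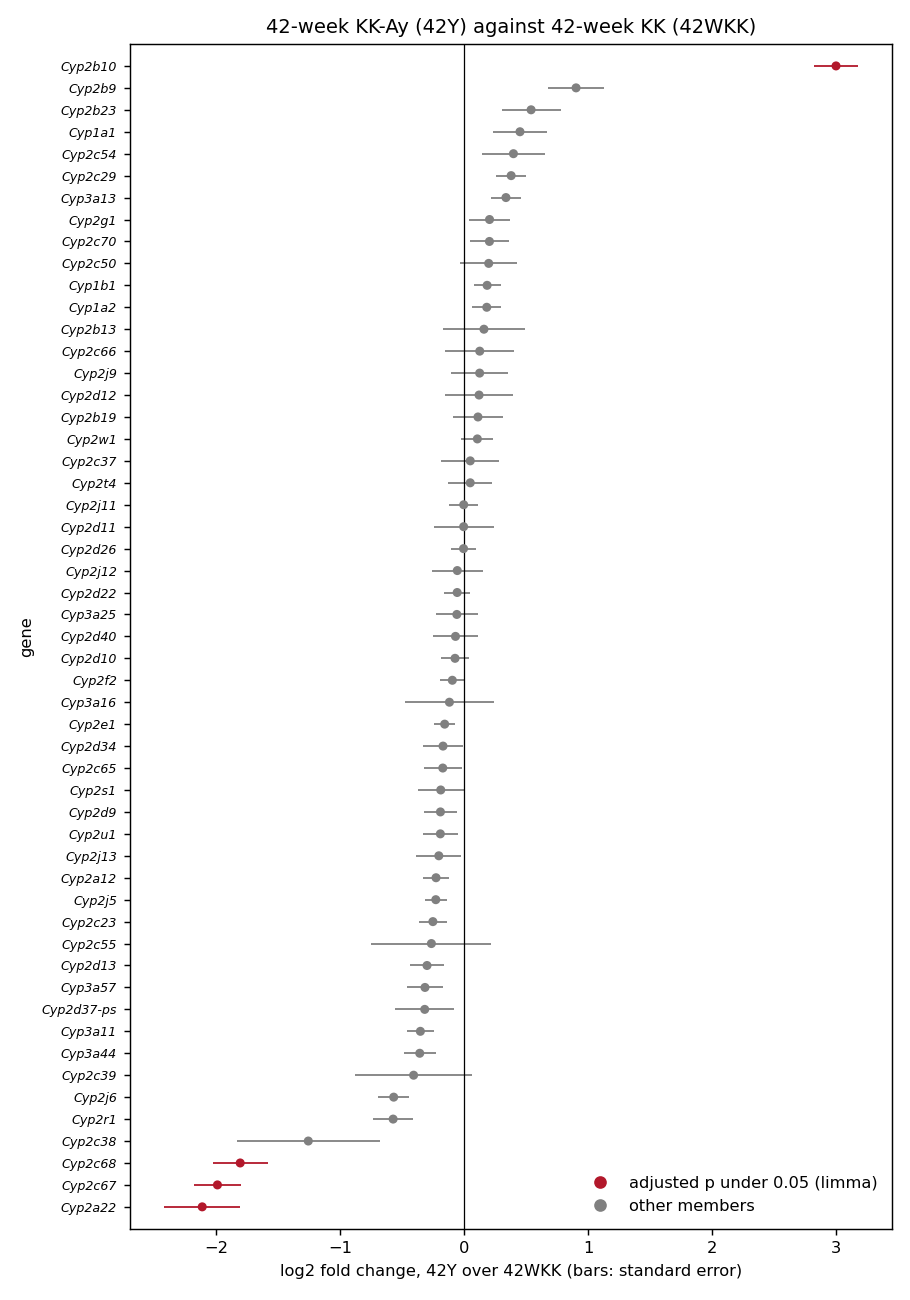
Log2 fold change of 42Y over 42WKK (horizontal axis, bars are standard errors) for each of the 53 members, sorted. The 4 called members, at 3.00 for Cyp2b10 and at -1.81, -1.99 and -2.11 for Cyp2c68, Cyp2c67 and Cyp2a22, stand at the ends, and most others lie near 0.

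The other members of Cyp2b did not pass. Cyp2b9, which is female-predominant in mouse liver, had 4.34 and 4.52 in 42Y, against 3.70 and 3.36 in 42WKK (0.90, standard error 0.23, adjusted p = 0.0952, limma). Cyp2b13, also female-predominant, stayed within 1.83 to 3.05 over all arrays. Among the receptors' other targets within the families, Cyp3a11 had 12.67 and 12.74 in 42Y, against 13.10 and 13.02 in 42WKK (-0.35, adjusted p = 0.143), and Cyp2c29 had 12.62 and 12.68, against 12.13 and 12.41 (0.38, adjusted p = 0.161). In both genes the groups did not overlap, but the share of all clusters without overlap was not counted. Cyp1a2, the AHR target that metabolises caffeine, had 12.25 and 12.13 in 42Y, against 11.87 and 12.14 in 42WKK (0.18, adjusted p = 0.473), and the groups overlapped. Cyp1a1 and Cyp1b1 had signals of 3.30 to 4.22 and 4.28 to 4.83 over all arrays and passed in none of the 8 tests.

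In 6Y against 6K, 0 of the 53 members passed (limma), against 0.00281% of all clusters, which is 1 cluster. At an unadjusted p under 0.05, 1 member passed (1.89%), Cyp2u1, a fatty acid hydroxylase, against 5.28% of clusters. Cyp2u1 had 7.64 and 7.53 in 6Y, against 8.39 and 8.09 in 6K (-0.66, adjusted p = 0.675, limma). Cyp2b10 differed by 0.16 (standard error 0.18) and Cyp2c67 by -0.11 (standard error 0.19).

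The difference between these differences was tested directly. For 42Y minus 42WKK less 6Y minus 6K, 2 members passed (3.77%), against 0.143% of clusters. They were Cyp2b10, with 2.84 (standard error 0.25, adjusted p = 0.0103, limma), and Cyp2c67, with -1.88 (standard error 0.26, adjusted p = 0.0494). The call of Cyp2b10 was lost without either 6K array (0.0621 each time), and that of Cyp2c67 without any 1 of the 12 arrays (0.0501 to 0.16). Cyp2c68 had -2.19 (adjusted p = 0.0515) and Cyp2a22 -2.52 (adjusted p = 0.083), which did not pass. At an unadjusted p under 0.05, 12 members passed (22.6%), against 13.2% of clusters. The numbers 6 and 42 in the titles go with different array pairs, so a change with age and a difference between array pairs cannot be told apart.

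**Figure D4:**
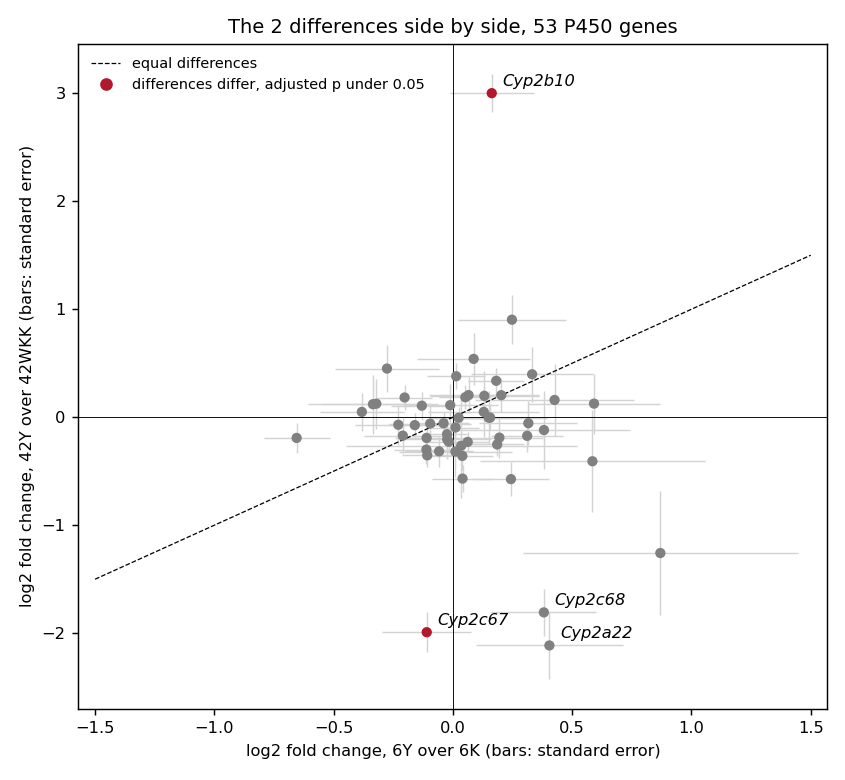
Log2 fold change of 42Y over 42WKK (vertical axis) against that of 6Y over 6K (horizontal axis) for the 53 members, with standard errors as bars and a dashed line of equal differences. Cyp2b10 and Cyp2c67 (red) lie at 3.00 and -1.99 on the vertical axis and at 0.16 and -0.11 on the horizontal one.

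Among the 3 Y groups, 16Y and 42Y were set against 6Y. These comparisons share the 6Y arrays. In 16Y against 6Y, 4 members passed (7.55%), 2 higher and 2 lower, against 1.78% of clusters, and 17 passed at an unadjusted p under 0.05 (32.1%, 12 higher and 5 lower), against 18.1%. In 42Y against 6Y, 3 passed (5.66%), 1 higher and 2 lower, against 1.83%, and 17 at an unadjusted p under 0.05 (10 higher and 7 lower), against 16.0%.

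Cyp2b10 was higher by 1.98 in 16Y (adjusted p = 0.00678, limma) and by 1.38 in 42Y (0.0109) than in 6Y. Cyp2b9, of the same subfamily, had 5.69 and 5.53 in 16Y, against 4.74 and 3.98 in 6Y, a difference of 1.25 on the log2 scale (standard error 0.23, adjusted p = 0.0397). The 16Y arrays were the 2 highest of the 12 for Cyp2b9. In 42Y, at 4.34 and 4.52, Cyp2b9 lay within the spread of the 6Y arrays (0.07, adjusted p = 0.915). Without either 16Y array, the adjusted p of 16Y against 6Y was 0.0715 and 0.0724 for Cyp2b10 and 0.19 and 0.132 for Cyp2b9, and without 6Y-1 or 6Y-2 that of 42Y against 6Y was 0.0569 and 0.0673 for Cyp2b10.

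Cyp2c68 had 6.78 and 6.43 in 16Y and 6.74 and 6.42 in 42Y, against 8.96 and 9.07 in 6Y, with log2 fold changes of -2.41 (adjusted p = 0.0079, limma) and -2.43 (0.00308). Cyp2c67 had 8.66 and 8.56 in 16Y and 8.29 and 7.97 in 42Y, against 9.55 and 9.73 in 6Y, with -1.03 (adjusted p = 0.0397) and -1.51 (0.0097). Without 16Y-1 or 16Y-2, 16Y against 6Y had adjusted p = 0.0509 and 0.0724 for Cyp2c68, and 0.155 and 0.15 for Cyp2c67. Without 6Y-1 or 6Y-2 it had 0.111 and 0.177 for Cyp2c67, and without 6Y-2 it had 0.0529 for Cyp2c68. The call of Cyp2c67 in 42Y against 6Y was lost without 6Y-1 (adjusted p = 0.055) and without 6Y-2 (0.0639), and with a replicate block (0.0694). Over all 12 arrays the 2 genes had r = 0.842. They parted in group 1, where Cyp2c68 had 7.06 and 6.42, near 16Y and 42Y, while Cyp2c67 had 9.34 and 8.91, between 16Y and 6Y. In the order of Cyp2c68 means, 42WKK over group 1 was the step that passed (1.65, adjusted p = 0.0132), and no step between neighbours passed for Cyp2c67.

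Of the members that did not pass in 16Y against 6Y, those with the lowest adjusted p, named after their values were seen, were Cyp2j9 (0.0691), Cyp2d22 (0.0752) and Cyp3a13 (0.0896). Cyp2j9 had 7.91 and 7.57 in 16Y, against 6.78 and 6.70 in 6Y (1.00, adjusted p = 0.0691, limma), and Cyp2d22 had 10.39 and 10.46 in 16Y, against 9.96 and 10.01 in 6Y (0.44). The bile acid enzyme Cyp2c70, which makes muricholic acid in mice, had 12.03 and 11.86 in 16Y, against 12.51 and 12.46 in 6Y (-0.54, adjusted p = 0.127). In each of these 3 genes the groups did not overlap, but the share of all clusters without overlap was not counted. The cluster of Cyp2a5 and Cyp2a4, no member, had 11.38 and 11.40 in 16Y, against 9.91 and 9.98 in 6Y, a log2 fold change of 1.44 (adjusted p = 0.049), and in 42Y against 6Y it had 1.55 (adjusted p = 0.0393). Of the clusters with several symbols that hold a P450 of these families, 5 in all, the pair that carries Cyp3a41a, Cyp3a41b and Cyp3a44, one of them also with Cyp3a11, had -0.75 and -0.76 in 16Y against 6Y (adjusted p = 0.0328 and 0.0347).

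In 42WKK against 6K, 2 members passed (3.77%), against 1.01% of clusters, and 14 at an unadjusted p under 0.05 (26.4%), against 15.0%. Cyp2a22 had 6.35 and 6.02 in 42WKK, against 3.88 and 3.91 in 6K (2.29, standard error 0.31, adjusted p = 0.0203, limma), and Cyp2b10 fell by 1.46 on the log2 scale (adjusted p = 0.014). Neither passed without either 6K array or without 42WKK A, and Cyp2a22 was also lost without 42WKK B. The 2 genes that passed thus moved in opposite directions between these groups, with r = -0.454 over the 12 arrays.

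Of all 6 Y arrays against the other 6, with each group given equal weight, 3 members passed (5.66%), against 0.208% of clusters, and 8 at an unadjusted p under 0.05 (15.1%), against 12.3%. Cyp3a13, a Cyp3a enzyme encoded apart from the main cluster of its subfamily, had 9.59 and 9.80 in 6Y, 10.16 and 10.16 in 16Y, and 9.94 and 10.09 in 42Y, against 9.40 and 9.63 in 6K, 9.67 and 9.69 in 42WKK, and 9.24 and 9.29 in group 1 (0.47, standard error 0.07, adjusted p = 0.0457, limma). A single Y array, at 9.59, overlapped the others. Cyp2b10 had 1.23 (standard error 0.10, adjusted p = 0.00616), although its Y arrays ran over 9.48 to 11.55 and the others over 7.69 to 11.16. Cyp2c67 had -0.87 (standard error 0.11, adjusted p = 0.03), with Y arrays at 7.97 to 9.73 and the others at 8.91 to 10.24. For these 2 genes the ranges overlapped widely, and the mean of the Y groups describes no single group. The call of Cyp2c67 was lost without any 1 of the 10 arrays outside 42Y (0.0512 to 0.125) and that of Cyp3a13 without any 1 of the 12 (0.0625 to 0.16).

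Cyp2j6, one of the Cyp2j enzymes that act on arachidonic acid, passed in the F test and in none of the 7 contrasts above. It had 8.28 and 8.06 in 6Y, 8.37 and 8.38 in 16Y, 8.06 and 8.07 in 42Y, 8.27 and 7.99 in 6K, 8.63 and 8.64 in 42WKK, and 7.89 and 7.73 in group 1. The 42WKK arrays were above and the group 1 arrays below the others. Between these 2 groups, compared after the data were seen, the difference was 0.82 (42WKK minus group 1, standard error 0.13, adjusted p = 0.0158, limma).

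Some other Cyp2c genes ran together over the arrays, with none of them called. How far probes of one of these genes read another was not tested. Cyp2c50, Cyp2c54 and Cyp2c37 had pairwise r of 0.849 to 0.949 over the 12 arrays, and Cyp2c38 and Cyp2c39, the second of which hydroxylates retinoic acid, had 0.888. In the last pair 1 array stood apart. Array 1-5 had 5.13 for Cyp2c38 and 8.63 for Cyp2c39, while 1-3 of the same group had 7.40 and 10.34, and the other 10 arrays ran over 6.13 to 8.04 and 9.43 to 11.16.

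None of the 10 Cyp2d genes passed in any of the 8 tests, in each of which at most 5.43% of all clusters passed. A count of 0 among so few genes is near these shares. Cyp2d9, a male-predominant steroid hydroxylase in mice, ran over 10.67 to 11.25. The pseudogene Cyp2d37-ps had the widest range of its subfamily, 1.70, with 8.19 and 8.69 in 42Y, against 9.56 and 9.34 in 6Y (-1.01, adjusted p = 0.0824, limma). Cyp2j5, with 11.50 to 11.78, and Cyp2r1, a vitamin D 25-hydroxylase, with 6.53 to 7.55, also failed to pass. Cyp2r1 was highest in 42WKK (7.55 and 7.47) and lowest in group 1 (6.54 and 6.53).

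Several members with a mean under 6 are described here by their range over the 12 arrays. Cyp2g1 of the olfactory mucosa had 4.16 to 4.67, Cyp2s1 and Cyp2w1 4.33 to 5.46 and 4.58 to 5.12, and Cyp2c65, known from the gut, 1.51 to 2.20. Cyp2t4 had 2.88 to 3.51, Cyp2j12 2.14 to 2.95, Cyp3a57 2.51 to 3.09 and Cyp3a16, a fetal form, 2.10 to 3.60. Markers of lung airway, intestine, kidney tubule and pancreas had array medians of 2.53 to 4.84.

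Among 21 of 22 listed regulators that were measured, 2 passed in 42Y against 42WKK, both higher, against 1.85% of all clusters. Foxa3, a liver forkhead factor, had 8.73 and 8.68 in 42Y, against 7.54 and 7.44 in 42WKK (1.22, adjusted p = 0.00769, limma), and Cebpa had 8.96 and 8.73, against 7.80 and 8.02 (0.93, adjusted p = 0.0203). The receptors themselves did not pass. Nr1i3 had 8.42 and 8.93 in 42Y, against 9.29 and 9.43 in 42WKK (-0.68, adjusted p = 0.243), which is the opposite sign to Cyp2b10. It was at 10.23 and 9.94 in 16Y and at 10.31 and 9.87 in group 1. Nr1i2 had 7.86 and 8.41 in 42Y, against 8.19 and 8.23 in 42WKK (-0.08, adjusted p = 0.891), and Ahr 8.24 and 7.99, against 7.56 and 7.81 (0.43, adjusted p = 0.161). Receptor activity was not measured.

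Of 17 measured CAR and PXR targets outside the families (21 listed), 3 passed in 42Y against 42WKK (1.85% of all clusters did), with a list median of 0.00. The bile acid and organic anion carrier Slco1a4 had 5.19 and 4.85 in 42Y, against 6.15 and 6.13 in 42WKK (-1.12, adjusted p = 0.0436, limma). Glutathione transferase Gstm2 had 8.84 and 9.05, against 9.58 and 9.45 (-0.57, adjusted p = 0.0485). Oestrogen sulfotransferase Sult1e1, at low signals of 3.16 and 3.35 in 42Y against 2.52 and 2.53 in 42WKK, was higher (0.73, adjusted p = 0.033). Cyp2b10 and these targets thus did not move one way. In 16Y against 6Y, 5 of the 17 passed, 3 higher (Sult1d1, Abcc2 and Sult1e1) and 2 lower (Gstm3 and Ces2a), against 1.78% of all clusters.

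Of 12 measured partner and heme genes (14 listed), Hmox1, which degrades heme, was the 1 that passed. It had 8.76 and 8.59 in 42Y, against 6.56 and 6.85 in 6Y (1.98, adjusted p = 0.00506, limma), and 8.56 and 8.28 in 42WKK, against 7.03 and 6.60 in 6K (1.60, adjusted p = 0.0169). In these comparisons 1.83% and 1.01% of all clusters passed. The other 11 genes passed in none of the 8 tests, in each of which at most 5.43% of clusters passed. Of 5 measured AHR targets outside the families (7 listed), Tiparp passed in 42Y against 42WKK, against 1.85% of all clusters. It had 8.88 and 7.02 in 42Y, against 5.21 and 5.37 in 42WKK (2.66, adjusted p = 0.0387, limma). Cyp1a1 and Cyp1a2 did not pass.

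**Figure D5:**
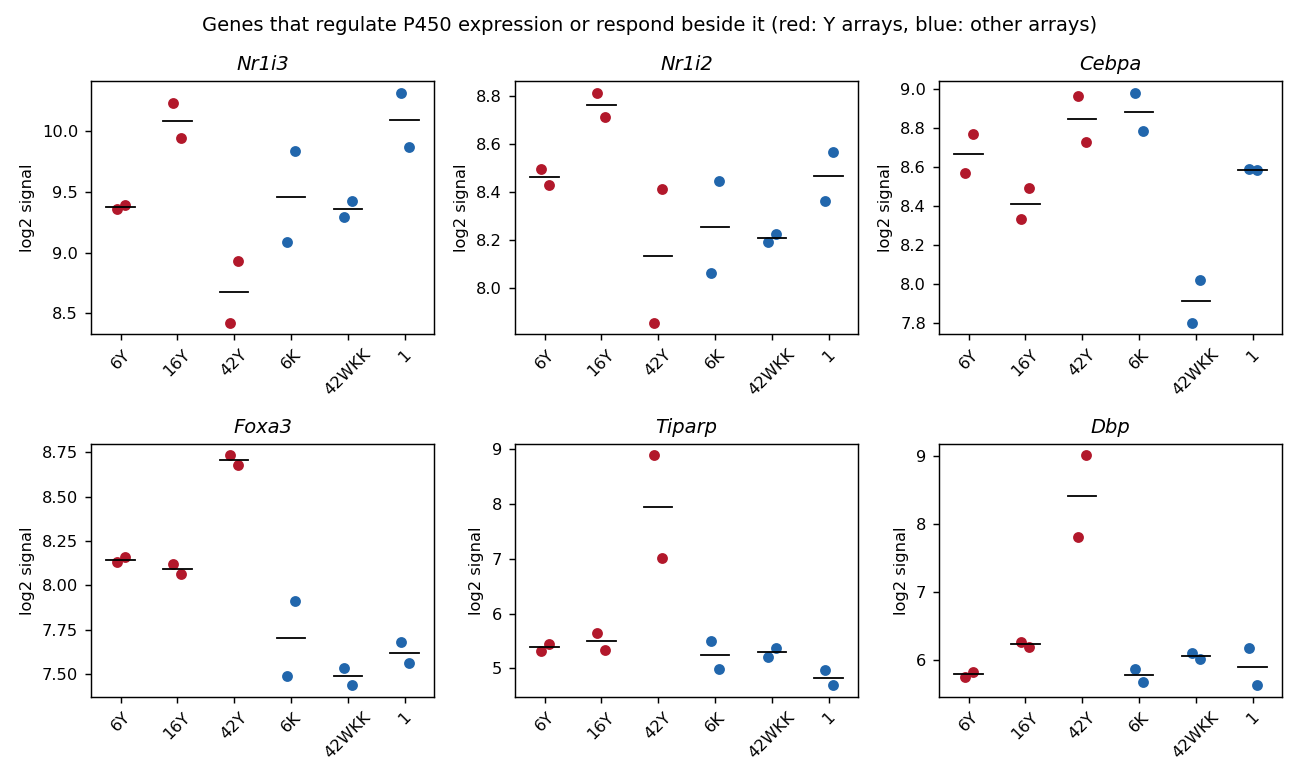
Log2 signal (vertical axis, a scale of its own in each panel) of 6 genes that regulate P450 genes or move beside them, per array (points) by title group, with bars at group means. Nr1i3 is lowest in 42Y (8.42 and 8.93), Cebpa is lowest in 42WKK (7.80 and 8.02), and Foxa3, Tiparp and Dbp are highest in 42Y.

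Other gene groups moved between the same arrays. Of 16 measured clock genes (18 listed), 8 passed in 42Y against 42WKK, 5 higher and 3 lower, against 1.85% of all clusters. Dbp, a D-box binding clock output factor, had 7.81 and 9.01 in 42Y, against 6.10 and 6.01 in 42WKK (2.36, adjusted p = 0.0186, limma), and 5.62 to 6.26 in all arrays outside 42Y. No source used here gives the hour at which livers were taken, and the part of the clock genes in the members' differences was not tested.

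Of 10 measured male-biased liver genes (12 listed), 3 passed in 42Y against 42WKK, against 1.85% of all clusters. Elovl3 had 10.98 and 10.94, against 12.44 and 12.33 (-1.42, adjusted p = 0.00186, limma), Mup21 was lower (-1.21, adjusted p = 0.0449) and C4a higher (0.87, adjusted p = 0.0304). Of 11 measured female-biased genes (14 listed), Cyp4a14 alone passed, lower by 2.05 on the log2 scale (adjusted p = 0.0295). Xist was at 2.29 to 2.91 and the Y-linked Eif2s3y at 7.19 to 7.94 in all 12 arrays, the pattern of male tissue. The part of the sex-biased genes in the members' differences was not tested. Array medians of 9 pericentral genes, which mark the zone where many P450 enzymes are made, were 7.55 to 8.89, and 1 of the 9, Gulo, was lower in 42Y than in 42WKK, while Oat and Slc1a2 passed in the F test. Of 5 measured periportal genes (8 listed), Cdh1 passed in the F test and was lower in 16Y (-0.97, adjusted p = 0.0307, limma) and in 42Y (-0.90, 0.0258) than in 6Y, and lower in 42WKK than in 6K (-1.03, 0.0239). The part of these genes in the members' differences was not tested. Array medians of 6 Kupffer cell genes were 5.67 to 7.23, with none called, and of 6 neutrophil genes 3.67 to 4.77, with Retnlg called higher in 42Y than in 42WKK. None of the 10 general hepatocyte genes was called in any of the 8 tests, in each of which at most 5.43% of clusters passed. Over all clusters, arrays of a group correlated at 0.983 to 0.991, and array medians were 4.74 to 4.88.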

How the data were processed

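RNA was measured on 12 Affymetrix arrays. The deposited values are log2 signals of transcript clusters. Per the methods the authors obtained them by robust multichip analysis, and the submitters' processing notes name Affymetrix Expression Console. An exon array is named in the methods, but the cluster identifiers match the mouse gene array, and its genome build is given nowhere in the sources used here. Values were used as deposited.

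Group means of the 6 title groups were fitted on all 12 arrays with limma 3.58.1 (R 4.3.3, no variance trend). Calls are at adjusted p under 0.05 (Benjamini-Hochberg, over 35556 clusters). Of a gene's clusters with exactly 1 symbol, the one with the highest mean stands for it. Symbols were updated through gene identifiers of GRCm38.p6 where they matched (21698 clusters). Of all clusters, 21789 carried 1 symbol, 1621 several and 12146 none. The members and all lists were chosen with earlier results of these data known. Named members were Cyp2b10, those called in any test, the one with the highest mean in each subfamily, and the 5 with the highest and the 5 with the lowest mean. Others are named after their values were seen. Levels of different genes were not compared. The fit was tested on simulated data. The number of arrays limits the precision. Alternatives were quantile normalization, a minimum mean of 6, a variance trend, clusters with 1 symbol, any cluster of a gene, fits without 6K or with the 42-week arrays alone, the study's ANOVA, a replicate block and each array left out. Each member has 1 cluster, so the setting of any cluster of a gene repeats the main fit. It could not differ from the main fit in any count of alternatives.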

Additional observations from a re-analysis of the deposited data

Results flagged for a closer look

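Cyp2b10 and Cyp2c67 stood out because the difference of 42Y and 42WKK was itself different from that of 6Y and 6K, by 2.84 for Cyp2b10 and -1.88 for Cyp2c67 on the log2 scale (adjusted p = 0.0103 and 0.0494, limma). For Cyp2b10 this passed in 15 of 17 alternatives and was lost without either 6K array (up to adjusted p = 0.0621). For Cyp2c67 it was lost in 13 of 17.

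In 2 of 54 sets of 6 arrays tested, 1 array lay far from the others of its set, and chance gives about 1 in 20. Cyp2t4 had 2.88 in array 1-5, against 3.35 to 3.49 in the other 5 arrays without Y in their titles. Cyp3a16 had 3.60 in array 6Y-1, against 2.27 to 2.71 in the other 5 Y arrays. Both genes are at low signals.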

How the results depend on the processing

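No result changed direction under the alternatives run. The F test called 7 members, and 15 over clusters with 1 gene symbol (15.6% of those clusters passed), 16 of the 31 tested over clusters with a mean of at least 6 (43.4%) and 14 with a variance trend (10.5%), against 5.43% of all clusters for the 7. Fewer clusters were tested in the first and second of these. It called 3 (Cyp2b10, Cyp2c67 and Cyp2c68) without both 42WKK arrays, which was chosen after seeing the data, and 3 to 7 with 1 array left out. In 42Y against 42WKK, 4 members (1.85% of clusters) became 7 at a mean of at least 6 (14.6% of clusters), 0 with the 4 arrays of 42-week mice alone, 0 with the study's ANOVA after adjustment and 14 with it unadjusted (10.7% of clusters), and 2 to 5 with 1 array left out. Without either 42WKK array, Cyp2c68 and Cyp2a22 were lost and Cyp2b10 and Cyp2c67 kept. In 16Y against 6Y, 4 became 8 over clusters with 1 symbol (5.41% of clusters) and with a variance trend (3.79%), 7 at a mean of at least 6 (17.1%), 2 without the 6K arrays (0.546%), and 0 to 5 with 1 array left out, with 0 without either 16Y array. In 42Y against 6Y, 3 became 6 over clusters with 1 symbol (5.54%), 7 at a mean of at least 6 (11.3%), and 1 to 3 with 1 array left out, with Cyp2c68 alone without either 6Y array. For Y arrays against the others, 3 became 5 over clusters with 1 symbol (1.34%) and at a mean of at least 6 (4.65%), and 1 to 2 with 1 array left out. For the difference of differences, 2 became 4 over clusters with 1 symbol (0.955%) and with a variance trend (0.568%), 1 after quantile normalization (0.127%), and 0 to 3 with 1 array left out, with 0 without either 6K array. In 42WKK against 6K, 2 became 6 at a mean of at least 6 (12.4%), and 0 to 3 with 1 array left out, with 0 without either 6K array or 42WKK A. In 6Y against 6K the count stayed at 0 throughout. With 1 array left out, its group's lone array is assumed to vary like the other groups. The causes were not tested.

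Cyp2b10, Cyp2c67 and Cyp2c68 passed the F test in all 20 alternatives. These include the setting of any cluster of a gene, which repeats the main fit. Cyp2j6 was lost in 15 of 20 (highest adjusted p = 0.218, limma), Cyp3a13 in 8 of 20, Cyp2a22 in 7 of 19 and Cyp2b9 in 6 of 19. In 16Y against 6Y, Cyp2b9 was lost in 11 of 18 and Cyp2c67 in 10 of 19. Cyp3a13 over Y arrays was lost in 12 of 17. Differences between replicates 1 and 2, taken over all clusters, correlated at -0.04 to 0.05 between 6Y, 16Y, 42Y and 6K. Whether the numbers pair the arrays cannot be told from this, because a pairing with small effects or effects on few genes would not show. With a replicate block, 16Y against 6Y called 2 members, Cyp2b10 and Cyp2c68, 42Y against 6Y called the same 2, and 6Y against 6K called 0. No paired analysis was possible for 42WKK and group 1 because their array names share no numbers with the other groups.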
